A study of Homo sapiens with 6 samples.

Results

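A set of 24 genes was nearly silent in MDA-MB-231 cells given a control siRNA and measurable in every library of cells given siRNA against PHF20L1. MDA-MB-231 is a human cell line from a triple-negative breast tumour, and an siRNA is a small RNA duplex through which the cell cuts matching transcripts. The genes were chosen by their deposited FPKM (fragments per kb of transcript, relative to library size), at most 0.5 in each of the 3 siControl libraries and at least 1 in each of the 3 siPHF20L1 libraries. They were 24 of the 17452 genes listed. Their difference between the groups is therefore how they were selected and is given as a description, with no test. "Near silent" below means at most 0.5 FPKM in every library of a group, and values are FPKM as deposited, with means ± SD over 3 libraries a group and the siControl value first where 2 means stand side by side.

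Both groups were the same cell line, transfected with siRNA and differing, per the labels, in the siRNA alone. The time of harvest and the siRNA sequences are not stated in the labels, which also do not tell whether replicates were separate cultures. P-values then cover only the spread among these samples, possibly a technical one. The depth estimated from the steps of the lowest values was 17140000 to 17520000 fragments per library, and 1 fragment in a transcript of 1 kb was worth 0.0571 to 0.0583 FPKM. PHF20L1 (Entrez 51105) was at 15.75, 12.48 and 12.73 FPKM in the siControl and at 2.67, 2.31 and 2.74 FPKM in the siPHF20L1 libraries (log2 difference -2.03, SE 0.10, limma, adjusted p = 1.46e-06), so each library followed its label. The mesenchymal markers of this line were present (VIM 1620 and CD44 141 FPKM in siControl). Of markers of luminal breast cells, ESR1 and TFF1 were listed at 0 in all 6 libraries, and PGR and CDH1 were near silent. The others were measurable in siControl, KRT19 at 30.1, ERBB3 at 3.97, FOXA1 at 2.51, EPCAM at 2.20 and GATA3 at 1.96 FPKM. The libraries numbered 1 stood apart in both groups: their deviations from the group means correlated across genes with r = 0.73, a description over genes. Ratios within the number 1 and within the numbers 2 and 3 are therefore given as ranges over all genes of the set and singly for several.

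PHF20L1 reads methylated lysines in the nucleus through its Tudor and PHD domains. It is known to bind the maintenance DNA methyltransferase DNMT1 when that enzyme carries a lysine methyl mark, and to protect it from degradation. Maintenance methylation copies the pattern of methylated CpG dinucleotides to the new DNA strand, and methylated CpG-rich promoters are typically silent. Genes silent in a cell line can also lack the transcription factors of another cell type, or lie in chromatin closed by other marks. DNA methylation was not measured in these files.

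The DNA just upstream of the 24 genes was of mixed kind. The RefSeq promoter table (GRCh38.p14) held the 250 bases before the start for 18 of the 24. These windows were read on the gene's strand from the table and are used for sequence only, since the files were made on GRCh37. A single window per gene was used, although DCLK1 has 4 and NPR3 has 3 listed RefSeq transcripts. The start that these cells use may be another. Below are 4 windows, 5′ to 3′ with each CpG in capitals, shown because they span the range. DCLK1 and NPR3, with the highest ratios among the 23 genes that have one, had almost no CpG, whereas ADAM12 and ILDR2 had CpG-rich windows. MAL2 and CD177, also with high ratios (7.67 and 6.26), had no window, and a link between ratio and CpG content was not tested. TVP23C-CDRT4, listed at 0 in siControl and so without a ratio, also had a CpG-rich window, with 35 CpG. This entry overlaps TVP23C, which was at 4.22, 2.90 and 4.06 FPKM in siControl, and the window may also serve that gene. DCLK1 lies on chr13:36131940-36132189, minus strand, NPR3 on chr5:32690622-32690871, plus strand, ADAM12 on chr10:126388478-126388727, minus strand, and ILDR2 on chr1:166975541-166975790, minus strand.
DCLK1: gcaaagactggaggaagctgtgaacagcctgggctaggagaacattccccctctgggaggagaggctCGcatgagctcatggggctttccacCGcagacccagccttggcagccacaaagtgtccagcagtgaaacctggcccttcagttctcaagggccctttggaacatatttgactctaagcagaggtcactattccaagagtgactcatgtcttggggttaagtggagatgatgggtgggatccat
NPR3: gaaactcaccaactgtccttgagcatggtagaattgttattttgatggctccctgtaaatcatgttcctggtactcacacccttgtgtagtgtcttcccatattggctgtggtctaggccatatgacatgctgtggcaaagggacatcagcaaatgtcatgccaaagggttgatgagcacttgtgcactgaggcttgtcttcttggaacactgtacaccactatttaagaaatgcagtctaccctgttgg
ADAM12: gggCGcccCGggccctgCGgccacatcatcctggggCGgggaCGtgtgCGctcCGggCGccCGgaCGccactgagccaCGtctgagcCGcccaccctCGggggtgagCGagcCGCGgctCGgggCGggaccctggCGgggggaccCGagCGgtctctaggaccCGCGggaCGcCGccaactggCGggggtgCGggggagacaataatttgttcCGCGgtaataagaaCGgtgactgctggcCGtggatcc
ILDR2: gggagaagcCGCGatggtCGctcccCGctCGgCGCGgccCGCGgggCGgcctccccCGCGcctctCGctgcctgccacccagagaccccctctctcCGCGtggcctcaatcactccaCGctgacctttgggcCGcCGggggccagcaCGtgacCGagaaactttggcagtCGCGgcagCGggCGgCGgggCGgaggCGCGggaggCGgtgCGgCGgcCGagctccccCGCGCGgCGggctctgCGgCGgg

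The DCLK1 window held 2 CpG and the NPR3 window 0, against 31 in ADAM12 and 38 in ILDR2. The ratio of observed to expected CpG (expected from the C and G content of the window) was 0.11 for DCLK1, 0.93 for ADAM12 and 0.99 for ILDR2. Over the 18 windows its median was 0.65, with quartiles of 0.13 and 0.82. The other near-silent genes had a median of 0.42 (n = 3763 windows) and genes of at least 1 FPKM in all 6 libraries a median of 0.84 (n = 9068 windows). A ratio of at least 0.6 with a GC content of at least 55%, a usual mark of a CpG island, was met by 9 of the 18 windows (50.0%), by 32.9% of the windows of the other near-silent genes and by 75.3% of those of expressed genes. The median of the 18 windows and this share thus lay between those groups. Their lower quartile of 0.13 did not, being under that of the other near-silent genes (0.20). The windows held both low and high values, as the plot of CpG content shows. The window of TVP23C-CDRT4, which may also serve TVP23C, is among the 9. No test was made of this difference.

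**Figure D1:**
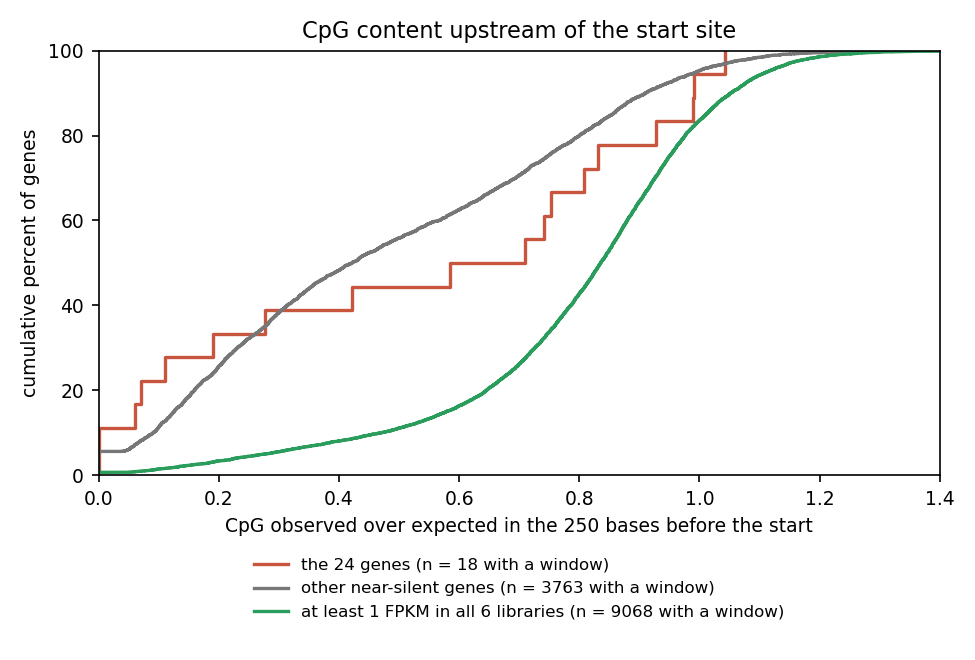
Cumulative percent of genes (vertical axis) by observed over expected CpG in the 250 bases before the RefSeq start (horizontal axis) for the 24 genes (18 with a window), the other near-silent genes and genes of at least 1 FPKM in all 6 libraries. The curve of the 24 genes starts with windows of almost no CpG and ends above 1, with a median of 0.65 against 0.42 in the other near-silent genes and 0.84 in expressed genes.

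Short motifs were searched on both strands of the same windows. CAGGTG, an E-box of the kind that ZEB and SNAI repressors bind, stood in 4 of 18 windows (22.2%; ELF3, KRTAP2-1, TTC39A and ARHGEF5), in 19.6% of those of other near-silent genes and in 16.8% of all. TATAAA, the core of a TATA box, stood in 2 (11.1%; ELF3 and KRTAP2-1), against 14.2% in other near-silent genes and 7.62% in all. TGACGTCA, the full cyclic AMP response element, stood in 0 of the 18 windows and in 2.50% of all. None of the 3 motifs is part of another. A match is a run of letters and not a site known to be bound.

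Most near-silent genes stayed near silent. Of the 5119 genes at most 0.5 FPKM in every siControl library (29.3% of the list), 4772 were near silent in both groups, and their number includes 788 listed at 0 in all 6 libraries. The 24 genes are 0.469% of the 5119, the share that the rule itself sets. With the groups exchanged, 2 of the 4938 genes near silent in the siPHF20L1 libraries were at least 1 FPKM in every siControl library, 0.0405%. They were N4BP2, which encodes a BCL3-binding protein, at 1.55, 1.31 and 1.12 FPKM in siControl against 0.47, 0.40 and 0.44 FPKM in siPHF20L1 libraries, and MAP2K6, a kinase that activates p38, at 1.27, 1.56 and 1.84 FPKM against 0.34, 0.27 and 0.46 FPKM. At a lower level of 0.25 FPKM in every library of the other group the counts were 504 and 279, at 0.5 FPKM 131 and 34, and at 2 FPKM 0 in both directions. The median mean of the genes near silent in siControl was 0.0233 FPKM there and 0.0333 FPKM in siPHF20L1 libraries.

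**Figure D2:**
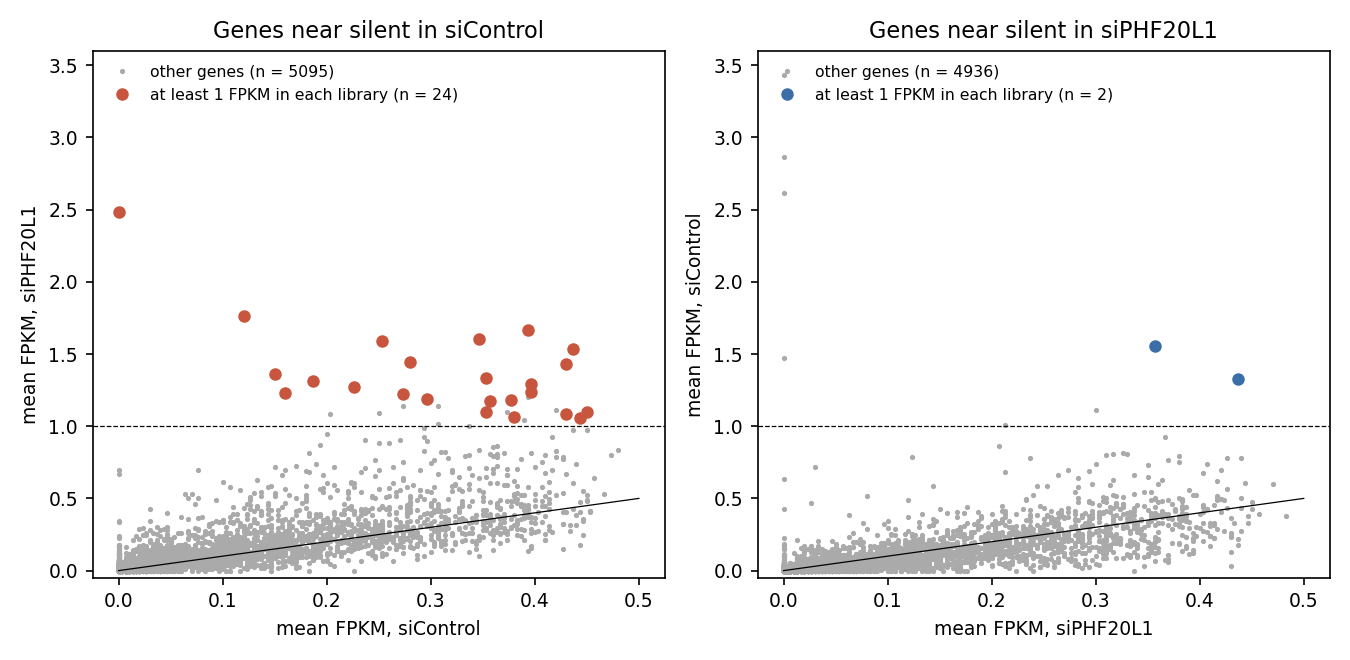
Left, mean FPKM in siControl (horizontal axis) and siPHF20L1 libraries (vertical axis) of the genes near silent in siControl, each point a gene and the solid line equal levels. Right, the same with the groups exchanged; 24 genes met the rule on the left and 2 on the right, and points above the dashed line at 1 FPKM that are not coloured had a library under it.

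Even in siPHF20L1 libraries the 24 genes were low. Their means there ran from 1.06 to 2.49 FPKM with a median of 1.28, and 90.3% of the 11341 genes with at least 1 FPKM in every siPHF20L1 library lay above the highest of them. The median of those 11341 genes was 12.8 FPKM. The 24 genes together summed to 7.25 to 7.66 FPKM in the siControl and 31.8 to 34.0 FPKM in the siPHF20L1 libraries. They made up 0.00174% to 0.00194% of a library's FPKM in siControl and 0.00786% to 0.00857% in siPHF20L1. In bulk RNA, fewer cells with a transcript and less RNA per cell cannot be told apart.

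The ratio of the siPHF20L1 to the siControl mean could be given for 23 of the 24 genes, and ran from 2.38 to 14.7 with a median of 3.78. It was at least 4 in 11 genes and under 3 in 4. Within the libraries numbered 1 it ran from 2.22 to 20.1 (median 3.68), and within those numbered 2 and 3 from 2.28 to 12.6 (median 3.82). For single genes the sets differed more, by over 1.5 times for DCLK1, EDNRA, PALM2-AKAP2, KRTAP2-1 and FOXP2. The coefficient of variation in siPHF20L1 libraries was 2.93% to 32.3% with a median of 8.49%. The siPHF20L1 library numbered 1 was the highest of its group in 14 genes and the lowest in 8. All 24 passed the low-value filter of the limma fit, through their siPHF20L1 libraries alone, and no count of their calls is given.

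**Figure D3:**
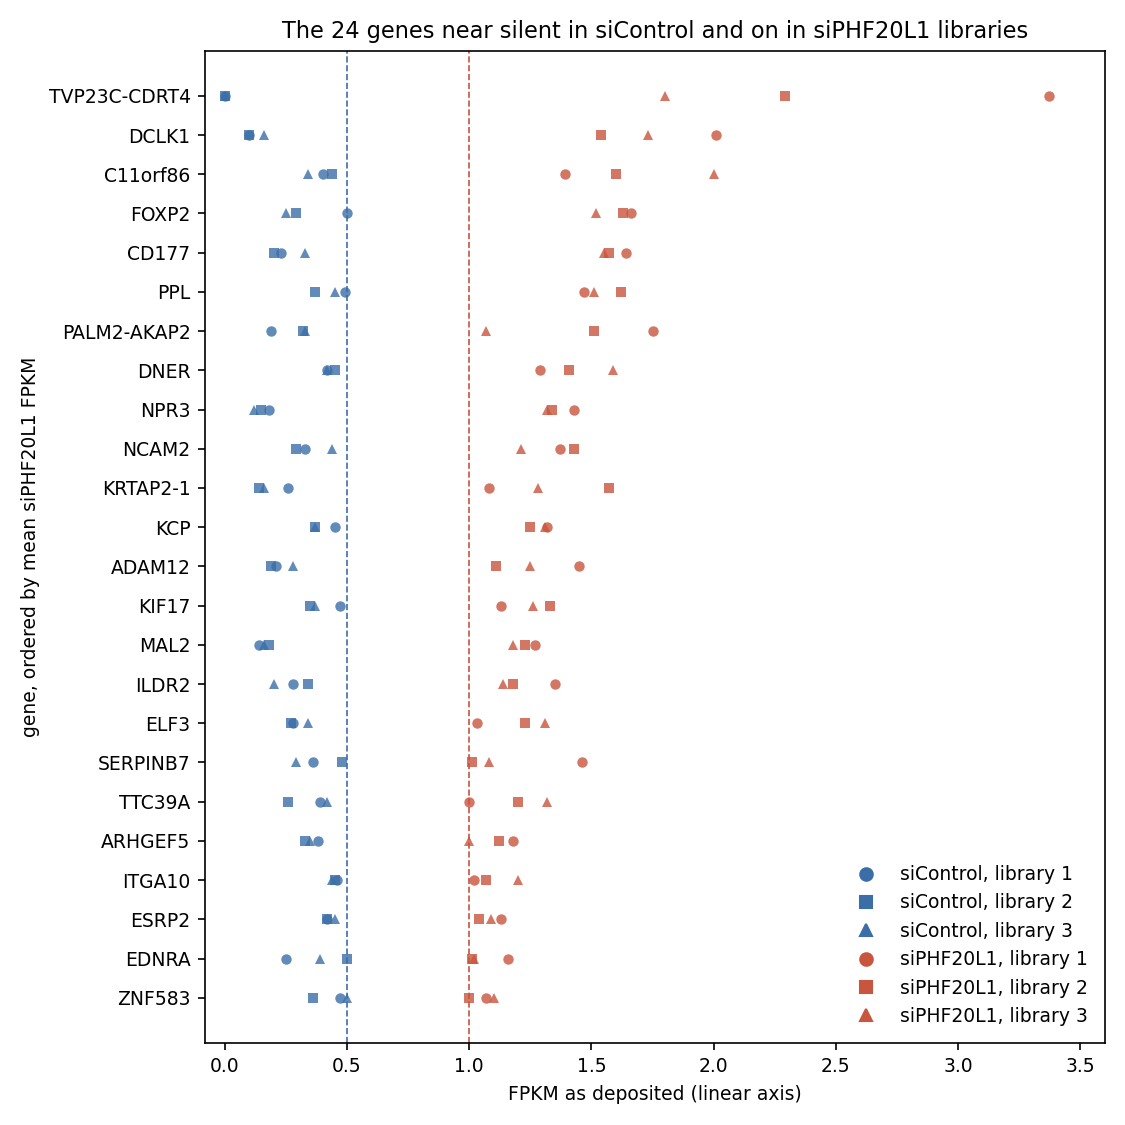
FPKM on a linear axis of the 24 genes (rows, ordered by their siPHF20L1 mean) in each of the 3 siControl libraries (blue) and 3 siPHF20L1 libraries (red), with dashed lines at the ceiling of 0.5 and the floor of 1 FPKM that chose them. TVP23C-CDRT4 spreads most, from 1.80 to 3.37 FPKM in siPHF20L1 libraries, and DCLK1, NPR3 and MAL2 lie far under the ceiling in siControl.

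The genes are described by the role of their proteins, first the receptors and other cell-surface proteins. NPR3 (Entrez 4883) encodes the natriuretic peptide clearance receptor, which takes up and removes these peptides. It was at 0.18, 0.15 and 0.12 FPKM in siControl against 1.43, 1.34 and 1.32 FPKM in siPHF20L1 libraries. The siControl values were all low and the siPHF20L1 values close together, with means of 0.150 ± 0.03 and 1.36 ± 0.0586 FPKM and a ratio of 9.09 (7.94 within the number 1 and 9.85 within the numbers 2 and 3). At the transcript length used here that is about 13 to 20 fragments a library against 146 to 156. Of its relatives, NPR1, a guanylyl cyclase receptor, was at 0.25, 0.47 and 0.28 FPKM against 0.71, 0.68 and 1.00 FPKM and was too low to test. NPR2, the cyclase receptor for C-type natriuretic peptide, was higher in siPHF20L1 libraries, at 0.817 ± 0.223 and 1.73 ± 0.0862 FPKM (log2 difference 0.59, SE 0.10, limma, adjusted p = 0.000977). The ligand genes NPPA, NPPB and NPPC stayed under the level tested, NPPA at 0.433 and 0.617 FPKM and the others lower.

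These tests of relatives are read against the whole table. Across the 11560 genes tested, 34.0% were higher and 24.7% lower in siPHF20L1 libraries at a limma adjusted p under 0.05, and the median log2 difference was 0.05. Quantile normalization gave 3344 higher and 3498 lower genes and median-ratio size factors 3303 and 3543, against 3926 and 2851 as deposited. A relative past the threshold is thus a common outcome. Genes related to the 24 by family, or as ligand, receptor or complex partner, numbered 102, of which 98 were in the files. Of these, 38 were themselves near silent in siControl and 55 could be tested: 21 were higher (38.2%), 16 lower (29.1%) and 18 did not pass, with a median log2 difference of -0.02. Both shares lie close to those of all genes. The balance moved with the setting: 22 were higher and 20 lower with the replicate block, 19 and 19 with quantile normalization, 19 and 20 with median-ratio size factors and 19 and 9 with the libraries numbered 2 and 3 averaged.

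**Figure D4:**
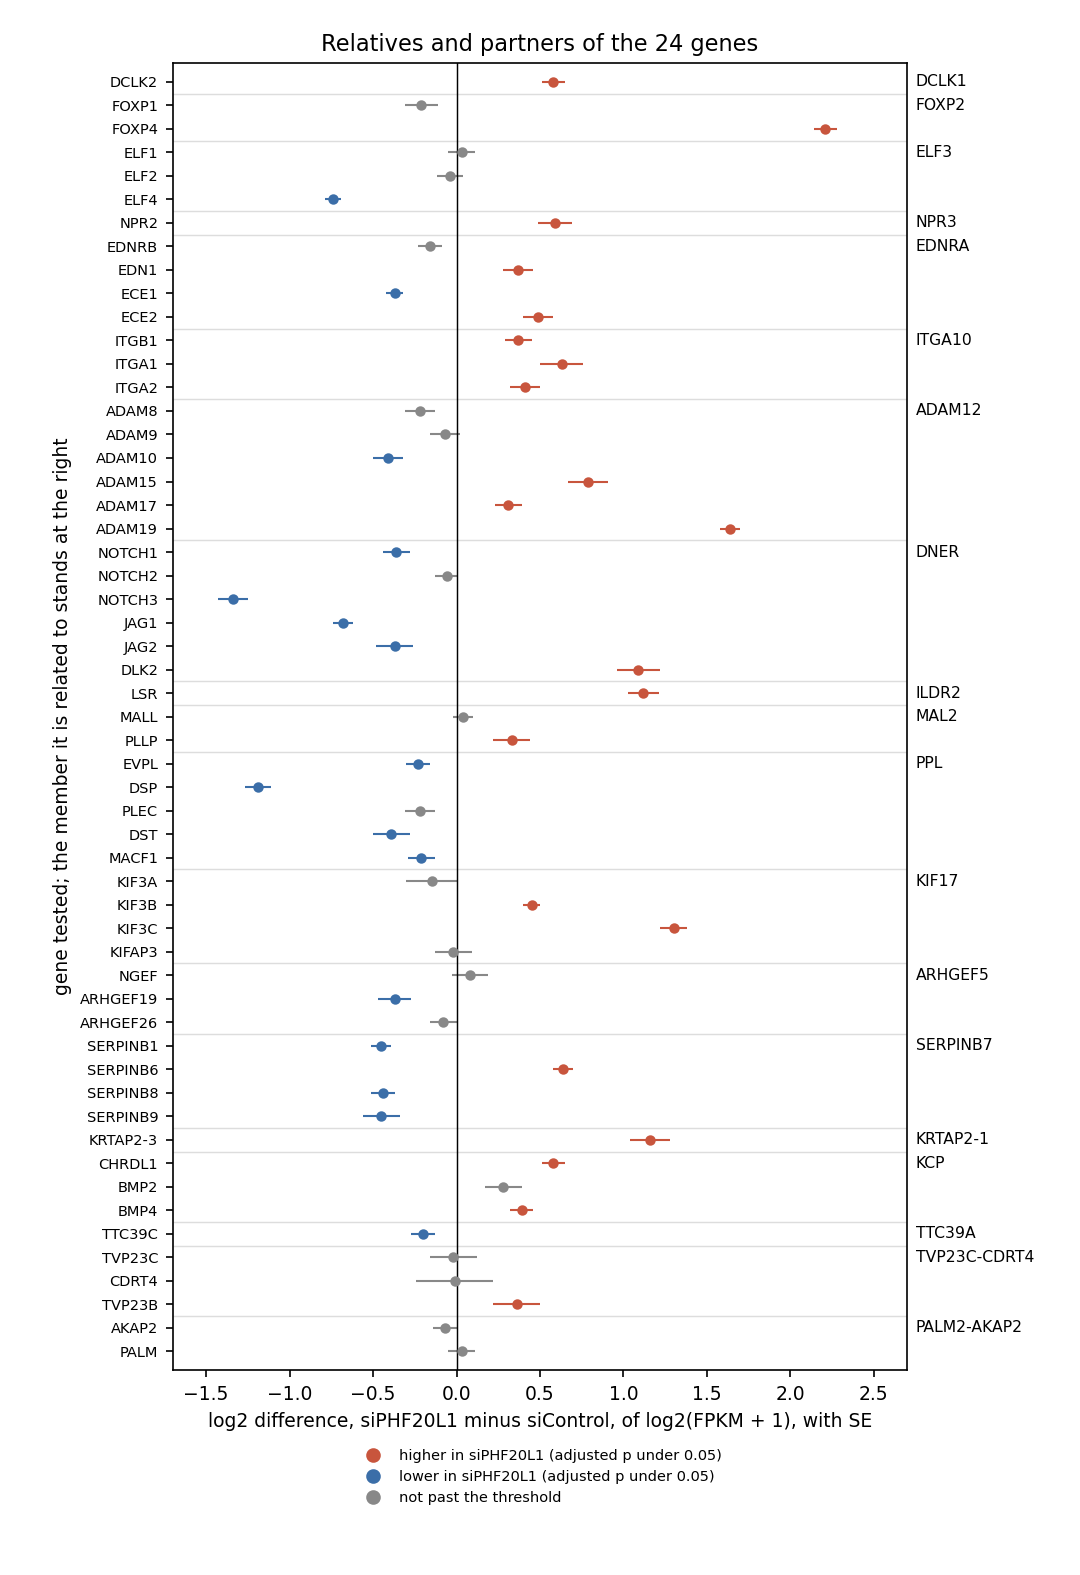
Log2 difference (siPHF20L1 minus siControl, of log2(FPKM + 1)) with its standard error for each of the 55 relatives and partners tested, grouped by the gene among the 24 named at the right. Points lie on both sides of 0; FOXP4 (2.21) and ADAM19 (1.64) lie farthest to the right and NOTCH3 (-1.34) and DSP (-1.19) farthest to the left.

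EDNRA (Entrez 1909), the endothelin A receptor, which raises calcium and contraction in smooth muscle, was at 0.25, 0.50 and 0.39 FPKM in siControl against 1.16, 1.01 and 1.02 FPKM in siPHF20L1 libraries. Its siControl library 2 stood on the ceiling, and its ratio of 2.80 (4.64 within the number 1 and 2.28 within the numbers 2 and 3) moved with the libraries used. The other endothelin receptor EDNRB was at 1.73 and 1.44 FPKM and did not pass (log2 difference -0.16, limma, adjusted p = 0.0851), but was called lower with quantile normalization and with median-ratio size factors (adjusted p 0.00566 to 0.318 over 14 alternatives, limma). The ligand gene EDN1 was higher, at 6.51 ± 0.274 and 8.72 ± 1.03 FPKM (log2 difference 0.37, SE 0.09, limma, adjusted p = 0.00744). The converting enzymes that cut the endothelin precursor went opposite ways, ECE1 lower (log2 difference -0.37, limma, adjusted p = 0.000434) and ECE2 higher (log2 difference 0.49, limma, adjusted p = 0.00187).

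DNER (Entrez 92737) encodes a transmembrane protein with EGF repeats, known from neurons as a ligand of Notch. It was at 0.42, 0.45 and 0.42 FPKM in siControl against 1.29, 1.41 and 1.59 FPKM in siPHF20L1 libraries. The siControl libraries were nearly equal just under the ceiling, and the ratio was 3.33. Of 11 Notch receptors and ligands listed with it, 5 were near silent in siControl and 6 were tested, of which 4 were lower and 1 higher. NOTCH3 was lower at 5.13 ± 0.493 and 1.42 ± 0.193 FPKM (log2 difference -1.34, SE 0.09, limma, adjusted p = 7.94e-06). The ligand gene JAG1 was lower at 13.4 ± 0.422 and 7.96 ± 0.321 FPKM (log2 difference -0.68, SE 0.06, limma, adjusted p = 3.75e-05). NOTCH1 and JAG2 were also lower by 0.36 and 0.37 on the log2 scale, the call of JAG2 being lost without siControl replicate 2, without siControl replicate 3 and with the libraries numbered 2 and 3 averaged. DLK2, a relative of the Delta ligands, was higher at 4.84 ± 0.816 and 11.5 ± 1.65 FPKM (log2 difference 1.09, SE 0.13, limma, adjusted p = 0.000144).

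NCAM2 (Entrez 4685), an adhesion molecule of the immunoglobulin superfamily known from olfactory neurons, was at 0.33, 0.29 and 0.44 FPKM in siControl against 1.37, 1.43 and 1.21 FPKM in siPHF20L1 libraries. The ratio was 3.78. Its paralog NCAM1 was listed at 0 in all 6 libraries. CD177 (Entrez 57126), a GPI-anchored surface protein of neutrophils, was at 0.23, 0.20 and 0.33 FPKM in siControl against 1.64, 1.57 and 1.55 FPKM in siPHF20L1 libraries. The siPHF20L1 values were close together and the ratio was 6.26, from about 8 to 13 fragments a library against 60 to 62. Its binding partners, the neutrophil protease gene PRTN3 at 0.1 and 0.35 FPKM and PECAM1 at 0.453 and 0.413 FPKM, were near silent in siControl. Of 5 myeloid markers, PTPRC was at 1.08 and 1.13, LYZ at 3.39 and 3.11, CSF1R at 0.930 and 1.16 and CD14 at 1.01 and 0.613 FPKM, and ITGAM was at most 0.01 FPKM in every library. Summed per library, the 5 ran from 5.84 to 7.25 FPKM in siControl and from 5.39 to 6.66 FPKM in siPHF20L1 libraries.

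ILDR2 (Entrez 387597), a membrane protein related to the angulins of tricellular junctions, was at 0.28, 0.34 and 0.20 FPKM in siControl against 1.35, 1.18 and 1.14 FPKM in siPHF20L1 libraries. Its transcript is long (13140 nt), so that these levels were about 45 to 77 and 260 to 304 fragments, more than for any other of the 24 with a length. The ratio was 4.48. LSR, an angulin that recruits tricellulin, was higher at 4.95 ± 0.546 and 12 ± 0.965 FPKM (log2 difference 1.12, SE 0.09, limma, adjusted p = 1.81e-05), while ILDR1 was near silent in siControl. MAL2 (Entrez 114569), a tetraspan membrane protein of transcytosis in polarised epithelia, was at 0.14, 0.18 and 0.16 FPKM in siControl against 1.27, 1.23 and 1.18 FPKM in siPHF20L1 libraries. It was among the lowest in siControl and its ratio was 7.67. Of its relatives, MAL was near silent, MALL did not pass (log2 difference 0.04, limma, adjusted p = 0.626) and PLLP was higher by 0.33 on the log2 scale, a call lost under 7 of 14 alternatives, among them without siControl replicate 1, siPHF20L1 replicate 2 or siPHF20L1 replicate 3.

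Next are a metalloprotease, an integrin chain, a secreted BMP modulator and a protease inhibitor. ADAM12 (Entrez 8038), a membrane-anchored metalloprotease that sheds growth factors, was at 0.21, 0.19 and 0.28 FPKM in siControl against 1.45, 1.11 and 1.25 FPKM in siPHF20L1 libraries. Library 1 was the highest of the siPHF20L1 group, and the ratio was 5.60 (6.90 within the number 1 and 5.02 within the numbers 2 and 3). ADAM19, its close relative, was at 15.62, 14.27 and 15.19 FPKM against 50.91, 46.58 and 49.82 FPKM (log2 difference 1.64, SE 0.06, limma, adjusted p = 5.31e-07). ADAM15 was higher too, at 34.5 ± 4.36 and 60.5 ± 8.89 FPKM (log2 difference 0.79, SE 0.12, limma, adjusted p = 0.000664). ADAM10, a main sheddase of many cells, was lower (log2 difference -0.41, limma, adjusted p = 0.0044), ADAM8 and ADAM9 did not pass (ADAM8 did, as lower, under 5 of 14 alternatives with the replicate block among them), and ADAM28 and ADAM33 were near silent.

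ITGA10 (Entrez 8515), the alpha chain of a collagen-binding integrin known from cartilage, was at 0.46, 0.45 and 0.44 FPKM in siControl against 1.02, 1.07 and 1.2 FPKM in siPHF20L1 libraries. All siControl libraries were just under the ceiling, and the ratio of 2.44 was among the lowest of the 24. Of the other collagen-binding chains, ITGA1 was higher at 4.64 ± 0.938 and 7.68 ± 0.860 FPKM (log2 difference 0.63, SE 0.13, limma, adjusted p = 0.0026), ITGA2 was higher by 0.41 on the log2 scale and ITGA11 was near silent. Their shared beta chain ITGB1 was higher at 503 ± 39.8 and 651 ± 54.1 FPKM (log2 difference 0.37, SE 0.08, limma, adjusted p = 0.00486).

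KCP (Entrez 375616), a secreted chordin-like protein that modulates BMP signals, was at 0.45, 0.37 and 0.37 FPKM in siControl against 1.32, 1.25 and 1.31 FPKM in siPHF20L1 libraries. The ratio was 3.26. Of its relatives and ligands, CHRDL1, a BMP antagonist, was higher at 6.11 ± 0.383 and 9.62 ± 0.549 FPKM (log2 difference 0.58, SE 0.07, limma, adjusted p = 0.000228). BMP4 was higher as well (log2 difference 0.39, limma, adjusted p = 0.00103), BMP2 did not pass (it did, as higher, with the replicate block and without siControl replicate 3 or siPHF20L1 replicate 2), and CHRD, CHRDL2, BMPER and BMP6 were near silent. SERPINB7 (Entrez 8710), an intracellular-type serine protease inhibitor of the epidermis, was at 0.36, 0.48 and 0.29 FPKM in siControl against 1.46, 1.01 and 1.08 FPKM in siPHF20L1 libraries. Only siPHF20L1 library 1 stood well above the floor, and the ratio was 4.06 within the number 1 and 2.71 within the numbers 2 and 3. Of 4 serpins of the same clade tested, SERPINB6 was higher (log2 difference 0.64, limma, adjusted p = 4.47e-05) and SERPINB1, SERPINB8 and SERPINB9 were lower, by 0.44 to 0.45 on the log2 scale, SERPINB9 not with the libraries numbered 2 and 3 averaged.

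Regulators of transcription and splicing numbered 4. FOXP2 (Entrez 93986), a forkhead repressor known from speech circuits and lung, was at 0.50, 0.29 and 0.25 FPKM in siControl against 1.66, 1.63 and 1.52 FPKM in siPHF20L1 libraries. Its siControl library 1 stood on the ceiling, whereas the siPHF20L1 libraries were close together. The ratio was 4.62, with 3.32 within the number 1 and 5.83 within the numbers 2 and 3. FOXP4, with which it can dimerise, was at 9.55, 10.86 and 10.90 FPKM against 49.99, 52.29 and 52.99 FPKM (log2 difference 2.21, SE 0.07, limma, adjusted p = 2.1e-07). FOXP1 was at 20.9 and 17.9 FPKM and did not pass (log2 difference -0.21, limma, adjusted p = 0.105). It was called lower under 5 of 14 alternatives, the replicate block among them (adjusted p = 0.000679, 0.000679 to 0.299 over the 14, limma), and FOXP3 was near silent in siControl.

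ELF3 (Entrez 1999), an epithelium-specific ETS factor, was at 0.28, 0.27 and 0.34 FPKM in siControl against 1.03, 1.23 and 1.31 FPKM in siPHF20L1 libraries. The ratio was 4.01, from about 15 to 19 fragments against 56 to 72. ELF4 was lower at 28.9 and 16.9 FPKM (log2 difference -0.74, SE 0.05, limma, adjusted p = 9.02e-06), ELF1 and ELF2 did not pass, and ELF5, the other epithelial ELF factor, was near silent. ESRP2 (Entrez 80004), a regulator of epithelial splicing, was at 0.42, 0.42 and 0.45 FPKM in siControl against 1.13, 1.04 and 1.09 FPKM in siPHF20L1 libraries. The libraries of each group were close and the ratio was 2.53. Its paralog ESRP1, with which it shares targets, was at 0.0433 and 0.0533 FPKM. ESRP2 overlaps NFATC3 on the RefSeq map, and how the authors' counting treated strand and overlaps was not given in the sources used here. NFATC3 was at 13.6 ± 1.12 and 11.7 ± 0.456 FPKM. ZNF583 (Entrez 147949), a KRAB zinc finger gene, was at 0.47, 0.36 and 0.50 FPKM in siControl against 1.07, 1.00 and 1.10 FPKM in siPHF20L1 libraries, with the lowest ratio of the set, 2.38.

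Genes of the cytoskeleton and its signalling numbered 4 with DCLK1. DCLK1 (Entrez 9201) encodes a microtubule-binding kinase with doublecortin domains, known from neurons and from tuft cells of the gut. It was at 0.10, 0.10 and 0.16 FPKM in siControl against 2.01, 1.54 and 1.73 FPKM in siPHF20L1 libraries. No other gene of the 24 with a ratio had one as high: the means were 0.12 ± 0.0346 and 1.76 ± 0.236 FPKM and the ratio 14.7 (20.1 within the number 1 and 12.6 within the numbers 2 and 3), from about 10 to 16 fragments against 154 to 196. DCLK2 was higher at 4.48 ± 0.0513 and 7.2 ± 0.459 FPKM (log2 difference 0.58, SE 0.07, limma, adjusted p = 0.000167), and DCLK3 and DCX were near silent. KIF17 (Entrez 57576), a kinesin motor of dendrites and cilia, was at 0.47, 0.35 and 0.37 FPKM in siControl against 1.13, 1.33 and 1.26 FPKM in siPHF20L1 libraries, a ratio of 3.13. Of the other kinesins of its subfamily, KIF3C was higher at 3.72 ± 0.208 and 10.7 ± 0.703 FPKM (log2 difference 1.30, SE 0.08, limma, adjusted p = 3.09e-06) and KIF3B by 0.45 on the log2 scale, and KIF3A did not pass.

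PPL (Entrez 5493), the plakin periplakin, which links keratin filaments to the cell border, was at 0.49, 0.37 and 0.45 FPKM in siControl against 1.47, 1.62 and 1.51 FPKM in siPHF20L1 libraries. The ratio was 3.51, from about 40 to 53 fragments against 157 to 177. The other plakins went the other way or did not pass: of 5 tested, 4 were lower and 0 higher, and the fifth, PLEC, was called lower under 5 of 14 alternatives with the replicate block among them. DSP, desmoplakin, the plakin of desmosomes, was lower at 4.20 ± 0.160 and 1.29 ± 0.165 FPKM (log2 difference -1.19, SE 0.08, limma, adjusted p = 6.81e-06). EVPL, envoplakin, with which periplakin pairs, was lower by 0.23 on the log2 scale, DST by 0.39 and MACF1 by 0.21. These calls were less stable, EVPL losing its call under 2 (1 of them without siControl replicate 2), DST under 3 (also without siPHF20L1 replicate 2 or 3) and MACF1 under 7 of 14 alternatives (also without siControl replicate 1 or 3 or siPHF20L1 replicate 2 or 3). ARHGEF5 (Entrez 7984), a guanine nucleotide exchange factor for small GTPases, was at 0.38, 0.33 and 0.35 FPKM in siControl against 1.18, 1.12 and 1.00 FPKM in siPHF20L1 libraries. The ratio was 3.11. ARHGEF35, a near-identical partial copy beside it, was at 0.12, 0.07 and 0.07 FPKM against 0.14, 0.19 and 0.46 FPKM, and reads may be split between the copies.

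The remaining named proteins were diverse. KRTAP2-1 (Entrez 81872), a hair keratin-associated protein, was at 0.26, 0.14 and 0.16 FPKM in siControl against 1.08, 1.57 and 1.28 FPKM in siPHF20L1 libraries. Its transcript is short, so that the ratio of 7.02 rests on about 2 to 3 fragments against 14 to 21. KRTAP2-3, a near copy, was at 5.31, 4.21 and 5.88 FPKM against 14.17, 11.88 and 11.83 FPKM (log2 difference 1.16, SE 0.12, limma, adjusted p = 5.33e-05), and KRTAP2-2 was listed at 0. Reads of KRTAP2-3 could be assigned to KRTAP2-1, and the value of KRTAP2-1 is uncertain for that reason. TTC39A (Entrez 22996), a tetratricopeptide repeat protein, was at 0.39, 0.26 and 0.42 FPKM in siControl against 1.00, 1.2 and 1.32 FPKM in siPHF20L1 libraries, a ratio of 3.29. TTC39B was too low to test, at 0.767 and 1.4 FPKM. C11orf86 (Entrez 254439), an open reading frame of little known function, was at 0.40, 0.44 and 0.34 FPKM in siControl against 1.39, 1.6 and 2.00 FPKM in siPHF20L1 libraries, a ratio of 4.23.

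Entries that join neighbouring genes numbered 2. TVP23C-CDRT4 (Entrez 100533496), a read-through transcript of TVP23C and CDRT4, had the highest level of the 24 after siPHF20L1. It was listed at 0 in all 3 siControl libraries and at 3.37, 2.29 and 1.80 FPKM in siPHF20L1 libraries, so no ratio is given. Neither part passed the threshold: TVP23C was at 4.22, 2.90 and 4.06 FPKM against 4.35, 3.51 and 3.07 FPKM (log2 difference -0.02, limma, adjusted p = 0.898), and CDRT4 at 1.72, 1.81 and 1.91 FPKM against 0.85, 2.02 and 2.89 FPKM (log2 difference -0.01, limma, adjusted p = 0.972). The 3 entries summed to 5.94, 4.71 and 5.97 FPKM in siControl against 8.57, 7.82 and 7.76 FPKM in siPHF20L1 libraries, of which the read-through entry held 0% in siControl and 39.3%, 29.3% and 23.2% in siPHF20L1. Reads shared between a read-through entry and its parts can be assigned to either, and a listed 0 can be a failed estimate, so whether the joined transcript itself differed was not tested.

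PALM2-AKAP2 (Entrez 445815), which joins the paralemmin gene PALM2 to the kinase-anchor gene AKAP2, was at 0.19, 0.32 and 0.33 FPKM in siControl against 1.75, 1.51 and 1.07 FPKM in siPHF20L1 libraries. The libraries numbered 1 were the lowest in siControl and the highest in siPHF20L1, and the ratio was 5.15 (9.21 within the number 1 and 3.97 within the numbers 2 and 3). AKAP2, which shares its exons, was at 94.1 ± 5.86 and 89.4 ± 6.82 FPKM and did not pass (log2 difference -0.07, limma, adjusted p = 0.399), though it was called lower with the replicate block (adjusted p = 0.0486, 0.0486 to 0.785 over 14 alternatives, limma). The joined entry equalled 0.188%, 0.354% and 0.363% of AKAP2 in siControl and 1.80%, 1.80% and 1.23% in siPHF20L1 libraries. Reads of shared exons can be assigned to either entry, and the part of this in the difference was not tested.

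By the cell component terms of the authors' deposited annotation, 11 of the 20 genes with a term (55%) were components of a membrane, against 43.7% of the other near-silent genes with a term and 22.7% of genes of at least 1 FPKM in all 6 libraries. These were ITGA10, DNER, NCAM2, ILDR2, EDNRA, CD177, ADAM12, NPR3, MAL2, DCLK1 and TVP23C-CDRT4. Terms for the extracellular space were held by 0 of the 20, against 11.2% of the other near-silent genes. Near-silent genes as a whole were thus rich in membrane proteins, and no test was made of the 24 against them. The 24 also had a higher siControl level than near-silent genes as a whole, with a median mean of 0.353 against 0.0233 FPKM. The part of that level in these shares was not tested.

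Of 17 gene lists set up for tissues and programmes, 1 held any of the 24: the epithelial list of keratins and junction genes, with PPL, ELF3 and ESRP2. The list also holds regulators, as ELF3 and ESRP2 are. Of its 50 genes in the files 26 were near silent in siControl, the 3 among them. Of all near-silent genes, 0.469% were in the set. The lists were chosen with earlier results of these data known, and no test was made of this count. Apart from the 3, 21 were tested, of which 5 were higher and 4 lower (limma, adjusted p under 0.05), with a median log2 difference of 0.04, close to that of all genes. CLDN1, a tight-junction claudin, was higher at 4.30 ± 0.725 and 9.58 ± 0.970 FPKM (log2 difference 1.00, SE 0.11, limma, adjusted p = 0.000107). EPCAM, an epithelial adhesion molecule, was higher at 2.20 ± 0.161 and 4.31 ± 0.796 FPKM (log2 difference 0.72, SE 0.11, limma, adjusted p = 0.00067). Of the other called genes of the list, named after their values were seen, the barrier protein gene FLG and the claudin gene CLDN7 were higher (log2 differences 0.69 and 0.41), and the keratin genes KRT81, KRT19 and KRT7 and the plakin gene EVPL were lower (log2 differences -0.66, -0.44, -0.41 and -0.23). KRT81 was at 81.0 ± 5.83 and 50.8 ± 3.65 FPKM (SE 0.08, limma, adjusted p = 0.000113). The call of KRT19 was lost under 5 of 14 alternatives, among them without siControl replicate 2, siControl replicate 3 or siPHF20L1 replicate 1. The E-cadherin gene CDH1 was near silent in both groups, at 0.363 and 0.383 FPKM. The counts of this list moved with the setting: 9 higher and 8 lower with the replicate block, 5 and 7 with median-ratio size factors, 8 higher without siPHF20L1 replicate 1 and 2 lower without siControl replicate 2. The libraries numbered 2 and 3 alone gave 8 higher and 6 lower, and averaging them 5 and 2. Markers of the mesenchymal state moved in the same libraries: of 9, 1 was higher (FN1) and 6 were lower. They summed to 2919 to 2948 FPKM in siControl against 1843 to 1867 FPKM in siPHF20L1 libraries. VIM held the largest part of that sum, at 1620 and 1020 FPKM. Of 9 luminal markers, ESR1 and TFF1 were listed at 0 in every library, 5 were tested, 1 was higher (EPCAM) and 3 were lower. Their sum was 35.7 to 44.2 FPKM in siControl against 29.4 to 34.5 FPKM in siPHF20L1 libraries. KRT19 held the largest part of it, at 30.1 and 22.1 FPKM. The part of the mesenchymal and luminal markers in the values of PPL, ELF3 and ESRP2 was not tested.

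The other 16 lists held 0 of the 24, although many of their genes were near silent in siControl. Near silent were 29 of 35 cancer-testis antigens, 40 of 48 germ-line and meiosis genes, 116 of 160 developmental homeobox and patterning factors, 48 of 59 neuronal and synaptic genes, 43 of 47 muscle genes and 25 of 48 tumour suppressors often silenced by promoter methylation. By gene family, 21 of 22 keratin-associated protein genes were near silent and 1 was in the set, as was 1 of the 80 near-silent ZNF-numbered zinc finger genes. Of 82 near-silent olfactory receptor genes, 123 near-silent solute carriers and 59 near-silent potassium channels, 0 were in the set. At 0.469% of near-silent genes, a family of 100 would hold fewer than 1 on average, so an absence from a list of this size says little. Defining markers of neurons, muscle, hepatocytes and germ cells were under 0.5 FPKM in every library.

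The 24 genes lay on 15 chromosomes, with 5 on chromosome 1 (ELF3, ILDR2, ITGA10, KIF17 and TTC39A) and 3 on chromosome 7 (ARHGEF5, FOXP2 and KCP). Their 48 flanking genes were the nearest listed genes without overlap on each side, by the order in the RefSeq table. Of these, 0 belonged to the set. SYT12, beside C11orf86, came close, at 0.41, 0.48 and 0.46 FPKM in siControl against 0.91, 1.06 and 0.96 FPKM in siPHF20L1 libraries. Of those 48, 22 were near silent in siControl and 21 were tested, of which 8 were higher and 7 lower (limma, adjusted p under 0.05). Such calls are common over the whole table, where 34.0% of the genes tested were higher and 24.7% lower. A further 3 genes overlap a member: TVP23C and CDRT4, which did not pass, and NFATC3, which was lower (limma, adjusted p = 0.0432), a call kept under 7 of 14 alternatives (adjusted p 0.00224 to 0.143). Beside the genes with the highest ratios, both flanks of NPR3 were lower. TARS was at 113 ± 3.06 and 97.7 ± 4.73 FPKM (log2 difference -0.21, limma, adjusted p = 0.0106). SUB1 was at 25.8 ± 2.51 and 19.7 ± 2.58 FPKM (log2 difference -0.37, limma, adjusted p = 0.0121). The flanks of DCLK1 were too low to test, NBEA at 0.960 ± 0.178 and 0.967 ± 0.153 FPKM and SOHLH2 at 0.0167 and 0.15 FPKM.

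The rule's thresholds cut through a continuum. Just inside the ceiling were FOXP2, ZNF583 and EDNRA, each with a siControl library at 0.50 FPKM, and just inside the floor ZNF583, TTC39A and ARHGEF5, each with a siPHF20L1 library at 1.00 FPKM. Just outside the ceiling lay ZNF239 (0.40, 0.40 and 0.51 FPKM in siControl against 1.39, 1.6 and 1.15 FPKM) and RSG1 (0.37, 0.22 and 0.51 against 1.15, 1.04 and 1.2 FPKM). Just outside the floor lay SERPINI1 (0.34, 0.17 and 0.31 against 1.12, 1.31 and 0.99 FPKM), PTGS2 (0.38, 0.26 and 0.28 against 1.01, 1.07 and 0.96 FPKM) and P2RY6 (0.31, 0.23 and 0.34 against 0.96, 1.18 and 1.43 FPKM). With a ceiling of 0.25 FPKM, 4 genes were left: DCLK1, MAL2, NPR3 and TVP23C-CDRT4. Under each of 3 other scalings of the libraries 12 of the 24 still met the rule: ADAM12, C11orf86, CD177, DCLK1, DNER, ILDR2, KCP, KIF17, MAL2, NCAM2, NPR3 and TVP23C-CDRT4. EDNRA, FOXP2, SERPINB7 and ZNF583 met it under none of the 3.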

How the data were processed

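RNA was measured by sequencing in 3 siControl and 3 siPHF20L1 libraries, poly-A selected and made with a stranded kit, per the labels' protocols. The deposited values are FPKM, 1 per gene and library, per the file headers. Tools in the submitters' processing notes are TopHat2 2.1.1, HTSeq 0.6.0 and Bowtie 0.12.2, with the build GRCh37 and no roles. How the authors computed FPKM, and whether counting used strand, is not given in the sources used here. The rule was applied to the deposited FPKM. Other genes were tested with limma 3.58.1 (R 4.3.3, intensity trend, two-sided) on log2(FPKM + 1), which understates changes of low genes, for the 11560 genes that reached 1 FPKM in 3 or more libraries, with Benjamini-Hochberg adjustment over all of them. Depth was estimated from the steps of low FPKM in genes under 1500 nt. Fragment numbers are approximate, from GENCODE transcript lengths.

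The 24 genes, their relatives and the gene lists were chosen with earlier results of these data known, the relatives by family or partner role after the 24 were listed. Named were all 24 genes, the nearest genes outside each threshold, the mirrored genes, up to 3 genes of a list with the largest differences, and relatives. Some genes that this rule names are not reported here. Symbols listed as dates (26 genes) were restored from the Entrez identifier. Same-numbered libraries deviated together across genes (r = 0.73, 0.44 and 0.42), though siControl 3 with siPHF20L1 2 gave 0.49. The numbers come from the sample titles. The fit with the replicate number as a block is an alternative, as are other pseudocounts, filters, scalings and library sets. The limma step was tested on simulated data.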

Additional observations from a re-analysis of the deposited data

How the results depend on the processing

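The size of the set depends on its thresholds. With a ceiling of 0.25, 1 or a floor of 0.5 or 2 FPKM, 4, 180, 131 and 0 genes met the rule, and 0, 54, 34 and 0 the mirrored rule. With group means in place of every library the counts were 59 and 16, with quantile normalization 12 and 4, with median-ratio size factors 16 and 2, and with equal sums 21 and 2. Leaving out each library in turn gave 24 to 38 genes, the highest without siControl replicate 1, and 3 to 6 mirrored genes (4 without siControl replicate 1, 5 without siControl replicate 2, 4 without siControl replicate 3 and 6 without siPHF20L1 replicate 1). The libraries numbered 2 and 3 alone gave 42 and 8. Fewer libraries are fewer conditions to meet, which by construction can raise a count and not lower it. In each of these settings with a count above 0 in either direction, the set exceeded the mirrored set.

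The genes called over the whole table numbered 6777, 4912 to 8257 under the alternatives without a block, and 8792 with the replicate block (4946 higher and 3846 lower). PHF20L1 stayed lower, by -2.36 to -1.93 on the log2 scale (limma, adjusted p 2.45e-09 to 8.29e-05). Of 45 relatives and epithelial genes called, 34 kept their call in all 14 alternatives and 0 reversed. The block ended none of these calls and added FOXP1, ADAM8, PLEC, BMP2 and AKAP2 among the relatives. Averaging the libraries numbered 2 and 3 left 9 relatives lower, against 16. At this depth 1 fragment in 1 kb is worth 0.0571 to 0.0583 FPKM, so siControl values of short genes rest on few fragments.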

Other observations

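Raising the ceiling to 1 FPKM, a choice of the alternatives, brings in some genes with higher siPHF20L1 levels than any of the 24. Of 5951 genes at most 1 FPKM in every siControl library, 180 (3.02%) were at least 1 FPKM in every siPHF20L1 library, 156 of them outside the 24. CCDC190, a coiled-coil protein, was at 0.23, 0.63 and 0.48 FPKM in siControl against 6.71, 5.17 and 5.47 FPKM in siPHF20L1 libraries. It missed the set through siControl library 2 alone, and its siPHF20L1 mean of 5.78 FPKM was above that of every one of the 24. ASB2, a ubiquitin ligase subunit known from muscle and blood cells, was at 0.57, 0.50 and 0.48 FPKM against 4.43, 5.21 and 5.52 FPKM. JPH2, a junctophilin of heart muscle, was at 0.84, 0.90 and 0.74 FPKM against 3.93, 3.75 and 4.16 FPKM. CDK14, a cyclin-dependent kinase of Wnt signalling, was at 0.79, 0.64 and 0.67 FPKM against 3.77, 3.62 and 3.24 FPKM. CD8A, a T cell coreceptor chain, met the ceiling at 0.50, 0.36 and 0.40 FPKM and missed the floor in 1 library, at 1.17, 1.29 and 0.88 FPKM, while the T cell receptor gene CD3E was at most 0.04 FPKM in every library.

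ZNF-numbered zinc finger genes were frequent among these additions. Of 129 at most 1 FPKM in every siControl library, 17 (13.2%) were at least 1 FPKM in every siPHF20L1 library, against 3.02% of all genes. These shares are not matched for siControl level. Of the 129 genes, 80 were near silent and gave 1 of the 17, ZNF583, which is among the 24. The other 16 were above 0.5 FPKM in a siControl library. Of all 5951 genes, 5119 were near silent and 832 were above 0.5 FPKM in a siControl library, and the 832 held the 156 additions. In the mirrored direction 0 of 54 were ZNF genes. ZNF268 was at 0.68, 0.82 and 0.69 FPKM in siControl against 3.19, 2.84 and 3.21 FPKM in siPHF20L1 libraries. Many of these genes share sequence, and reads may be split between copies. The family was looked at after its values were seen, and no test was made.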
